A study of Mus musculus with 2 samples.

Results

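Cytosolic ribosomal protein genes encode the proteins of the small and large subunits of the ribosome that works outside mitochondria. They were taken from the expression table by name, as every symbol beginning Rps or Rpl followed by a digit, plus Rpsa, Rplp0, Rplp1 and Rplp2. The ribosomal S6 kinases (Rps6k names), Rps19bp1, Rpl7l1, Rpl22l1 and names with -ps were left out. The rule gave 81 of 13373 genes. By name, 33 were assigned to the small subunit, 45 to the large subunit and 3 (Rplp0, Rplp1 and Rplp2) to the stalk of the large subunit. The 45 include Rpl6l, which GENCODE annotates as a processed pseudogene. The rule uses names only, but it was set with earlier results of these data known.

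The cells came from mouse intestinal organoids with a mutant Apc gene, grown from C57Bl animals aged 3 to 4 months. Apc is the tumour suppressor that keeps beta-catenin, the effector of Wnt signalling, at a low level. One library held cells treated with DBZ, an inhibitor of gamma-secretase, the protease that releases the active part of Notch. The other held cells given DMSO, the solvent. The treatment text of both samples lists 300 nM 4-OH-tam (4-hydroxytamoxifen, which switches on tamoxifen-dependent Cre) and 10 uM DBZ, and the sample titles were followed for the groups. The Apc allele, the Cre line and the number of animals or cultures behind each library are not given in the labels.

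The DBZ library had 1241 cells with a median of 10901 UMIs (unique molecular identifiers, 1 for each captured transcript), and the DMSO library had 968 cells with a median of 11183. Cells ranged from 5187 to 59745 UMIs in DBZ and from 5241 to 56915 in DMSO. The libraries share 3 cell barcodes. The labelled intestinal epithelium was checked with marker lists: 11 of 11 stem cell genes and 8 of 10 enterocyte genes were in the table, against 1 of 7 fibroblast genes (Vim), 1 of 6 immune genes (Cd74) and 1 of 4 endothelial genes (Pecam1). With 1 library per group there is no replicate check and no test, and every difference given here compares these libraries. Intervals cover counting error only, of UMIs or of cells.

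Ribosomal protein genes are among the most strongly transcribed genes of a growing cell, and the assembled subunits need most of the proteins in equal numbers. Their messenger RNAs typically start with a C followed by a run of C and T (U in the RNA) letters, called the terminal oligopyrimidine (TOP) motif. Through it, mTOR and the RNA-binding protein LARP1 control how well they are translated and how long they last. In the intestinal crypt, stem cells and dividing progenitors are known for active ribosome production, which Wnt signalling drives in part through Myc, while specialised secretory cells have left the cell cycle.

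The starts of several of these genes are shown because the TOP motif lies there and because the genes were chosen to span the range of differences between the libraries. Each sequence runs from 30 bases before to 20 bases after the start that RefSeq annotates on GRCm38.p6, read on the strand of the gene, with the longest run of C and T letters in capitals, or both runs where a pair is equally long. RefSeq lists 2 starts each for Rps21 and Rps27l, and the first listed is shown. Rps26, whose protein sits at the messenger RNA exit channel, starts in chr10:128626487-128626536 on the minus strand and had the lowest change. Rpl38, in chr11:114668550-114668599 on the plus strand, Rpl41, in chr10:128549149-128549198 on the minus strand, and Rps21, in chr2:180257349-180257398 on the plus strand, were among the least changed. Rps27, in chr3:90213629-90213678 on the minus strand, is shown with its relatives Rps27rt, in chr9:114982720-114982769 on the minus strand, and Rps27l, in chr9:66946056-66946105 on the plus strand.
Rps26: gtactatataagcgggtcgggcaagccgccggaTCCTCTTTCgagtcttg
Rpl38: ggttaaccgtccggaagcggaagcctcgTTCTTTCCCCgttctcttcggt
Rpl41: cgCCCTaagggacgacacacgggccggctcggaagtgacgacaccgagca
Rps21: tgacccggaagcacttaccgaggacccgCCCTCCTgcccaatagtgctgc
Rps27: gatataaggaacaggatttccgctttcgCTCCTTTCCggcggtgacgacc
Rps27rt: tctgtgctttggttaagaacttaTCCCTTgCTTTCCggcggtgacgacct
Rps27l: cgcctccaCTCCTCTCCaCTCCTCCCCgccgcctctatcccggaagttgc

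In Rps26, Rps27 and Rpl38 the longest run lies across or just after the annotated start, with lengths of 9, 9 and 10 letters. In Rps27l a pair of runs of 9 letters begins 22 and 12 bases before the start. In Rps27rt 1 run of 6 letters begins 7 bases before the start and another at the start itself. In Rpl41 the longest run has 4 letters. RefSeq starts were at hand for 60 of the 81 genes and for 6760 of the other genes analysed. A run of at least 8 C or T letters on the sense strand of this window was found in 28 of the 60 (46.7%) and in 18.1% of the other genes. The letters CCGGAAG, which ETS factors such as GABPA bind, were searched on both strands from 250 bases before to 50 bases after the start and found in 24 of the 60 and in 21.0% of the others. The letters AAGATGGC, bound by YY1, were searched on both strands of the same stretch and were found in 4 of the 60 (6.67%) and in 5.62% of the others. The letters TATAAA were found on the sense strand between 40 and 15 bases before the start in 0 of the 60 and in 1.23% of the others. The 28 genes with the run had a median log2 change between the libraries of -0.42 and the 32 without it a median of -0.43, so the run did not separate the changes described below.

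The ribosomal protein genes together took a smaller part of the transcripts of a DBZ cell than of a DMSO cell. Their share of the UMIs averaged 19.2% ± 5.93 (SD over 1241 cells) in DBZ and 25.8% ± 5.23 (SD over 968 cells) in DMSO, a difference of -6.62 percentage points, or 1.35-fold. Single cells ranged from 4.70% to 36.1% in DBZ and from 7.48% to 46.5% in DMSO, so the libraries overlapped widely. In DBZ, 71.0% of cells lay below the lower quartile of the DMSO cells and 13.6% lay above the DMSO median. Counting error alone would give an SD of 0.379 points in DBZ and 0.413 in DMSO, so most of the spread was between cells. Over pooled UMIs the share was 19.9% in DBZ and 26.3% in DMSO.

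A share can be lower because fewer ribosomal protein transcripts were captured or because more transcripts of other genes were, and shares alone cannot tell these apart. The median DBZ cell held 2197 UMIs of the 81 genes and 8667 of all other genes, and the median DMSO cell held 2970.5 and 8229.5. At these depths, which are close, the ribosomal protein UMIs were fewer and the other UMIs slightly more numerous in DBZ. Among cells with 5000 to 8000 UMIs the share averaged 16.1% in DBZ and 22.5% in DMSO. Among cells with 20000 to 60000 UMIs it averaged 21.7% and 27.4%, so the difference stood at each end of the depth range.

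**Figure D1:**
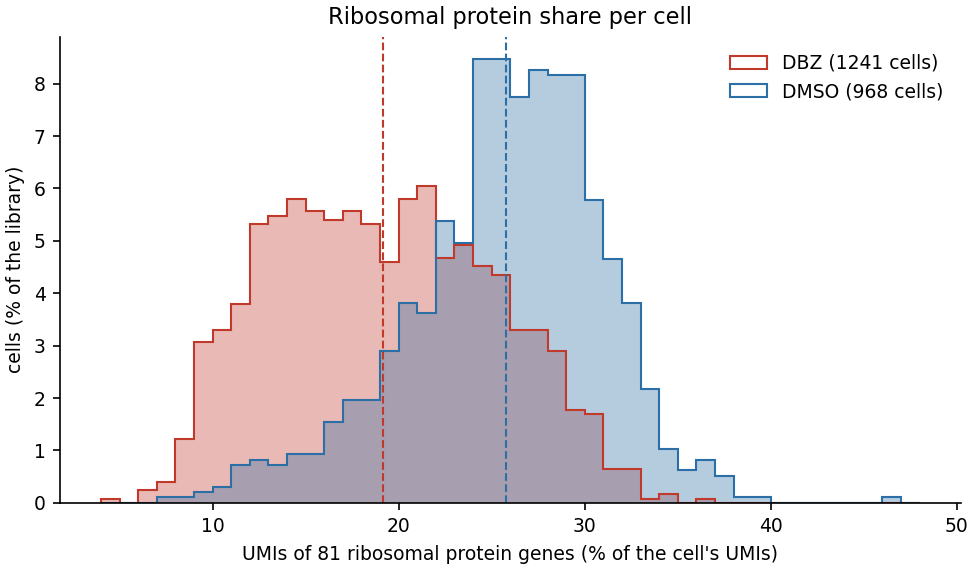
Share of each cell's UMIs that came from the 81 ribosomal protein genes (horizontal axis, percent) against the percent of the library's cells in each bin (vertical axis), for the DBZ and the DMSO library. Dashed lines mark the means, 19.2% for DBZ and 25.8% for DMSO, and the DBZ cells form a broader distribution that reaches further to the left.

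Cells with a low share were mostly DBZ cells. A share under 15% was found in 356 of 1241 DBZ cells (28.7%, with an exact Clopper-Pearson 95% interval from 26.2 to 31.3). In DMSO 38 of 968 cells were as low (3.93%, with an interval from 2.79 to 5.35). The cut of 15% was set after the data were seen. These intervals cover only the counting of cells within each library, not variation between libraries. The mitochondrially encoded share, a sign of damaged cells, had medians of 4.68% in DBZ and 4.40% in DMSO, and its correlation with the ribosomal share over cells was 0.03 in DBZ and -0.02 in DMSO. Malat1, a long noncoding RNA that stays in the nucleus, averaged 458 per 10000 UMIs in DBZ and 276 in DMSO. Over cells it correlated with the ribosomal share at -0.38 in DBZ and -0.33 in DMSO. With Malat1 left out of the total the difference in share was -6.46 points. Beyond that scaling, the part of Malat1 in the result was not tested.

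The difference was spread over nearly all of the 81 genes. For each gene the level is the mean over cells per 10000 UMIs, and the change is the log2 ratio of the DBZ over the DMSO level with 0.05 added to each. The change was below 0 for 80 of the 81 genes, against 36.8% of the 8797 genes analysed, which are those detected in 10% or more of DBZ cells or of DMSO cells. All 81 genes were among them. A change of -0.25 or lower, which is 1.19-fold, was reached by 71 of the 81, against a background of 15.4%, and a change of 0.25 or higher by 0 of the 81, against 33.5%. The median change was -0.44, which is 73.7% of the DMSO level, and the middle part of the genes (25th to 75th percentile) lay between -0.52 and -0.36. The median over all 8797 genes was 0.11.

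The 81 genes did not share a single value of the change. The SD of the change over the genes was 0.15, while the median distance from a gene's value to the bounds of its 95% counting interval was 0.0201, since each gene rested on 3434 to 136089 UMIs per library. The interval belongs to the ratio of pooled UMIs, in which deep cells weigh more, so it need not hold the change from means over cells. It lay below 0 for 80 genes and above 0 for 0 genes. In all, 27 genes had a change of -0.50 or lower, 44 lay between that and -0.25, and 10 lay above -0.25. Levels were scaled to all UMIs, of which these genes were a large part. Scaled to the UMIs of all other genes, 81 of 81 were lower, against a background of 49.3%. The median change was -0.55 and the median of all genes 0.01. On that scale 77 of the 81 reached -0.25 or lower, against a background of 23.2%.

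**Figure D2:**
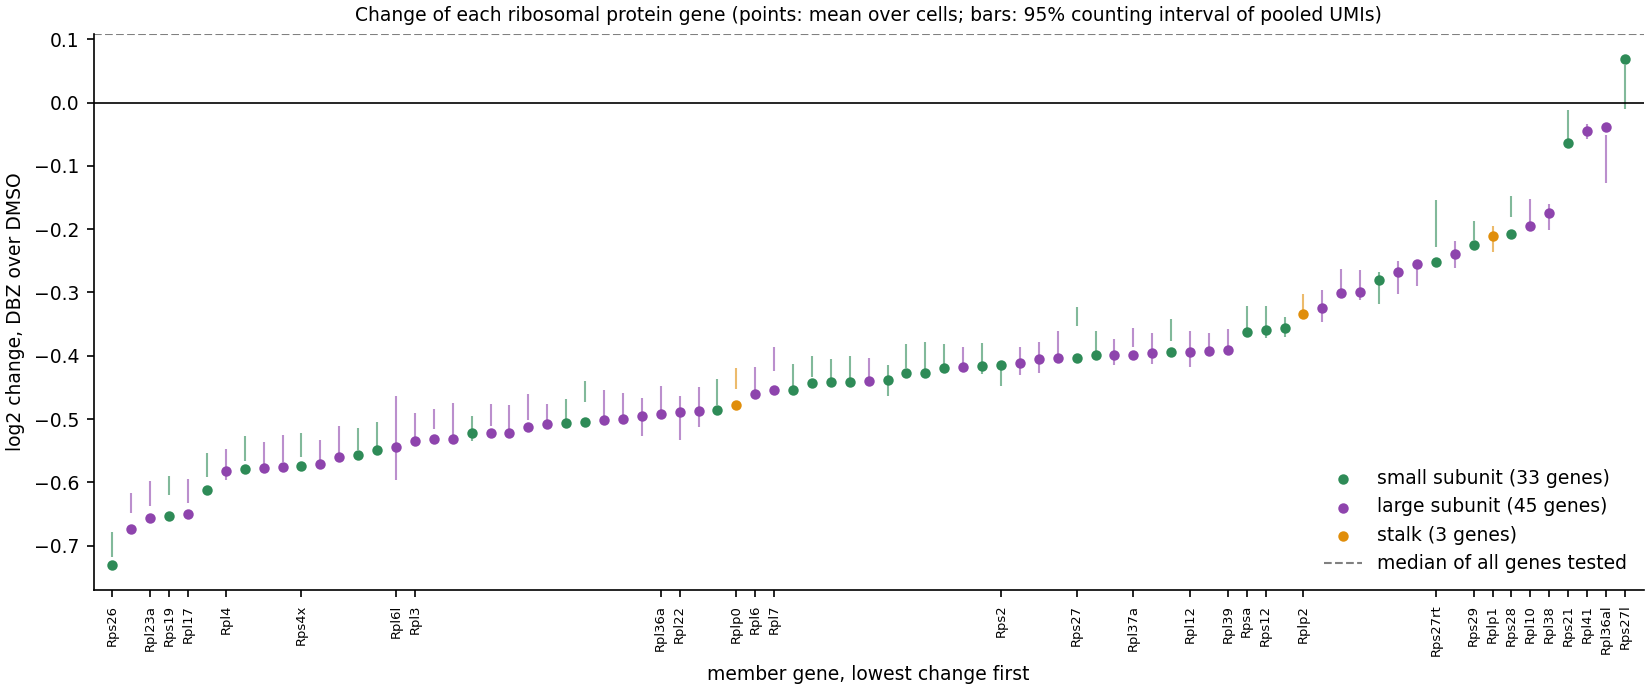
Log2 change of each of the 81 genes, DBZ over DMSO (vertical axis), ordered from the lowest to the highest (horizontal axis) and coloured by subunit, with the names of members described in the text. Points are means over cells, bars are 95% counting intervals of the pooled UMIs, which weigh deep cells more and so are not centred on the points, and the dashed line is the median of all genes, 0.11. All points but Rps27l lie below 0, and the 4 genes at the right end stand apart from the rest.

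Both subunits were lower to about the same degree. The 33 genes of the small subunit, which binds the messenger RNA, took 8.57% of UMIs in DBZ and 11.4% in DMSO, with a median change of -0.43, and 29 of them reached -0.25 or lower. The 45 genes of the large subunit, which joins the amino acids, took 10.5% and 13.9%, with a median of -0.46, and 40 of them reached -0.25 or lower. The ratio of small to large subunit UMIs was 0.818 in DBZ and 0.821 in DMSO. The balance of the subunits was thus nearly the same in both libraries while their sum differed.

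The genes with the lowest changes came from both subunits. Rps26 (chr10:128624534-128626747 in mm10, as are the gene positions that follow) stood at 22.7 per 10000 UMIs in DBZ and 37.7 in DMSO, a log2 change of -0.73, with a pooled interval of -0.72 to -0.68. Rps19 (chr7:24884371-24889806), a protein of the small subunit head that is mutated in Diamond-Blackfan anaemia, stood at 36.5 and 57.5, a change of -0.65. Among large subunit genes, Rpl23a (chr11:78180932-78183584), whose protein lies at the exit of the peptide tunnel, stood at 21.8 and 34.4, a change of -0.66. Rpl17 (chr18:74998558-75003381), also near that exit, stood at 24.6 and 38.6, a change of -0.65. For each of these 4 the whole pooled interval lay below the median change of the members.

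At the other end, 4 genes differed little between the libraries. Rps27l (chr9:66946086-66949516), a relative of Rps27 and a known p53 target, stood at 8.80 in DBZ and 8.39 in DMSO, a change of 0.07, and its pooled interval of -0.01 to 0.06 included 0. Rpl36al (chr12:69182731-69184083), a relative of Rpl36a, stood at 7.44 and 7.65, a change of -0.04. Rpl41 (chr10:128548114-128549305), which encodes the smallest protein of the ribosome, stood at 80.98 and 83.5, also a change of -0.04. Rps21 (chr2:180257377-180258445), a small subunit protein, stood at 17.0 and 17.8, a change of -0.06. Next came Rpl38 (chr11:114668524-114672331), known in mice for its role in translating Hox transcripts, at 25.04 and 28.3, a change of -0.18. Scaled to the UMIs of all other genes, the changes of Rps27l, Rpl36al, Rpl41 and Rps21 were -0.04, -0.16, -0.16 and -0.17, still the smallest of the 81.

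The stalk recruits the elongation factors to the large subunit. Its base Rplp0 (chr5:115559467-115563727) stood at 31.6 in DBZ and 44.0 in DMSO, a change of -0.48. The paired stalk proteins Rplp1 (chr9:61913284-61914542), at 23.5 and 27.2, and Rplp2 (chr7:141447370-141451585), at 23.7 and 29.9, had changes of -0.21 and -0.33. The Rplp0 transcript was thus lower by more than those of Rplp1 and Rplp2. Rpsa (chr9:120127689-120132369), a small subunit protein also known as the laminin receptor, stood at 14.6 and 18.7, a change of -0.36.

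The members with the most UMIs were Rpl41, Rps27, Rps29, Rps19 and Rpl37a. Rps27 (chr3:90212522-90213651), a zinc finger protein of the small subunit, stood at 44.9 in DBZ and 59.4 in DMSO, a change of -0.40. Rps29 (chr12:69157722-69159186), also a small subunit zinc finger protein, stood at 47.0 and 55.0, a change of -0.22. Rpl37a (chr1:72711290-72713813), of the large subunit, stood at 41.0 and 54.0, a change of -0.40. The order is one of captured UMIs, and how fully the transcripts of each gene were captured is not known.

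Several members have near-identical relatives, and how the authors' counting divided reads between them is not known, so their single values are uncertain. In the Rps27 family, the change was -0.40 for Rps27, 0.07 for Rps27l and -0.25 for Rps27rt (chr9:114982366-114982739, 7.61 in DBZ and 9.07 in DMSO). In the 50 bases after their starts, Rps27 and Rps27rt share an identical run of 38 bases, the beginning of which closes both of the sequences printed above. In the Rpl36a pair, Rpl36a (chrX:134585654-134588062) stood at 17.7 and 24.9, a change of -0.49, while Rpl36al changed by -0.04. Rpl6l (chr10:111125851-111126721), which GENCODE annotates as a processed pseudogene of Rpl6, stood at 2.07 and 3.04, a change of -0.54, beside -0.46 for Rpl6. Of members whose relatives Rps4l, Rpl3l, Rpl10l and Rpl39l were not used here, Rps4x had a change of -0.57, Rpl3 of -0.53, Rpl10 of -0.19 and Rpl39 of -0.39. Rpl22 had -0.49, and its relative Rpl22l1, outside the rule, stood at 13.1 in DBZ and 13.5 in DMSO, a change of -0.03.

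The change of a gene went with the length of its coding sequence. Over the 80 genes with a coding transcript in GENCODE, Spearman's correlation of coding length with the log2 change was -0.52. Pearson's correlation with log2 coding length was -0.55. With the length of the whole transcript, Spearman's correlation was weaker, at -0.37. The 41 genes of at most 453 coding bases had a median change of -0.40 and the 39 longer ones a median of -0.49. The shortest is Rpl41, with 75 coding bases and a change of -0.04, followed by Rpl39, with 153 and -0.39, Rps29, with 168 and -0.22, and Rps28, with 207 and -0.21. The longest are Rpl4, with 1257 and -0.58, Rpl3, with 1209 and -0.53, and Rplp0, with 951 and -0.48. Single genes depart from the order at both ends: Rpl39 and Rps27 (252 coding bases, -0.40) lie low for their length, Rps26 (345) had the lowest change of all, and Rpsa (885) had -0.36.

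This relation is across genes of the same libraries, and genes are not independent replicates. Over 8360 other genes the Spearman correlation was 0.21, and over the 3971 of them with a coding length up to that of the longest member it was -0.05. Over the 172 other genes with a DMSO level of at least 5 it was -0.37, with the same sign as in the ribosomal protein genes. With transcript length these correlations were 0.29, 0.11 and -0.22, in the same order. Within each of the 8 cell clusters described below that held both libraries, the correlation with coding length over the 80 genes was negative. It lay between -0.59 and -0.33. Between clusters of the same library it varied: against the DNA replication-like cluster 7, the enteroendocrine-like cluster 1 gave -0.23 in DBZ and -0.12 in DMSO, cluster 2 gave -0.20 and 0.04, and cluster 6 gave -0.45 in DBZ.

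**Figure D3:**
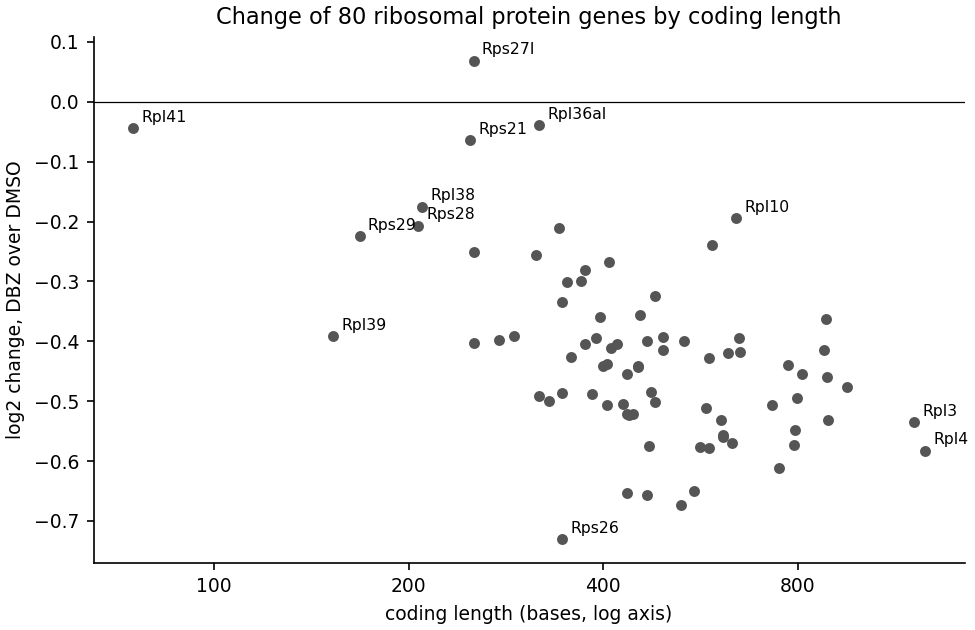
Log2 change, DBZ over DMSO (vertical axis), against coding length in bases (horizontal log axis) for the 80 ribosomal protein genes with a coding transcript. Each point is 1 gene. The cloud slopes downward with wide scatter: Rpl41 lies at -0.04 and Rpl4 at -0.58, but the short Rpl39 lies at -0.39 and Rps26 lies lowest, at -0.73.

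To see which cells carried the low shares, cells of both libraries were clustered together with the 81 genes left out. This gave 12 clusters. They are called by number, and by a cell type only where at least 3 of the 10 leading genes were markers of it. Cluster 1 was enteroendocrine-like (hormone-secreting cells, led by Ghrl and Chgb), cluster 4 mitosis-like (Ube2c, Nusap1) and cluster 10 Paneth-like (antimicrobial cells, led by Defa17 and Defa3). Cluster 7 was DNA replication-like: Cyp2c55 and Krt4 led it, followed by Mcm5 and Mcm3. The others stayed unnamed and are given with their leading genes. The makeup of the libraries differed greatly: 3 clusters were over 90% from 1 library, and 8 held at least 20 cells of each.

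The ribosomal share differed among clusters by more than between the libraries. In DBZ it was lowest in cluster 6 (led by Nts and Lcn2), at 14.1% (156 cells), in the enteroendocrine-like cluster 1, at 14.98% (213 cells), and in cluster 2 (Npy and Tmem255a), at 16.2% (219 cells). It was highest in the DNA replication-like cluster 7, at 26.2% (90 cells), and in cluster 11 (Reg3b and Ly6a), at 24.6% (30 cells). In DMSO it was lowest in clusters 1, at 15.96% (44 cells), and 2, at 17.6% (28 cells), and highest in cluster 8 (Amica1 and Ifi27l2b), at 29.8% (134 cells), and cluster 11, at 28.7% (54 cells). The Paneth-like cluster 10 stood at 19.1% in DBZ (75 cells). From the lowest to the highest cluster the share spanned 12.1 points in DBZ and 13.9 in DMSO. Enteroendocrine-like cells and cluster 2 were thus low in both libraries.

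**Figure D4:**
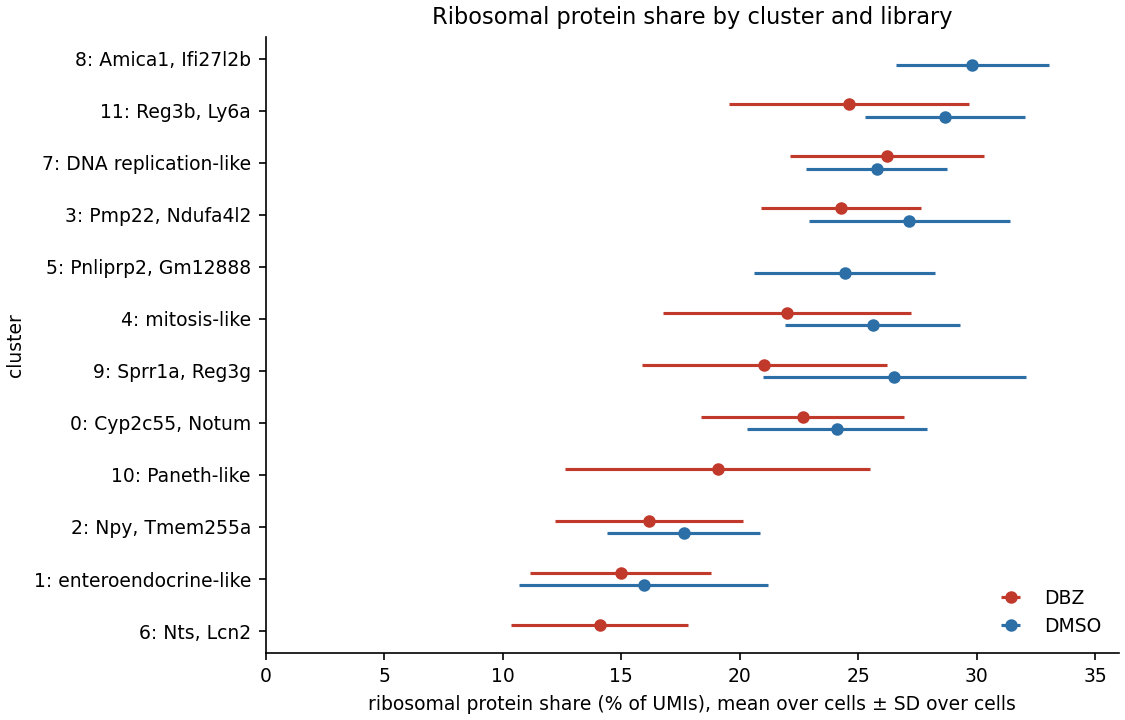
Ribosomal protein share of UMIs (horizontal axis, percent, mean over cells with the SD over cells as bars) for each cluster (vertical axis) and library with at least 20 cells. Clusters 1, 2 and 6 lie between 14.1% and 17.6%, and the clusters 7, 8 and 11 lie between 24.6% and 29.8%.

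Clusters 1, 2 and 6 together held 588 DBZ cells (47.4% of the library) and 81 DMSO cells (8.37%). They held 303 of the 356 DBZ cells with a share under 15%, and 33 of the 38 DMSO cells. Depth was lower in the enteroendocrine-like cells, with a median of 8772 UMIs in DBZ and 7963 in DMSO, and in cluster 2, with 9505 and 8126. In cluster 6, which had the lowest share, the DBZ median of 11903.5 UMIs was above that of the library. Malat1 was high in these clusters, at 516 per 10000 UMIs in DBZ cells of cluster 1, 662 in cluster 2 and 579 in cluster 6, against 233 in cluster 7. The part of depth and of Malat1 in the low shares was not tested.

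Against the other cells of the same library, nearly all members were lower in the enteroendocrine-like cluster. In DBZ 70 of the 81 had a log2 difference of -0.25 or lower, against a background of 31.0% of genes, with a median of -0.42. In DMSO 79 of the 81 did, against a background of 30.4%, with a median of -0.70. The lowest member there was Rpl7 in DBZ, at -0.93, and Rps19 in DMSO, at -1.41. In cluster 6 of the DBZ library 77 of the 81 did, against a background of 15.3%, with a median of -0.53. In cluster 2 of the DMSO library (28 cells) 77 of the 81 did, against a background of 29.2%, with a median of -0.56. In cluster 2 of the DBZ library (219 cells) the median of the members was nearer to that of all genes, at -0.31 against 0.07. In the DNA replication-like cluster of DBZ 80 of the 81 had a difference of 0.25 or higher, against 19.1%, with a median of 0.48. In DMSO 2 did, against 28.3%, with a median of -0.00.

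The members with the widest range over clusters were Rps12, Rps2, Rpl12, Rps19 and Rpsa. Rps2 (chr17:24718116-24721929), at the messenger RNA entry of the small subunit, ran from 18.5 per 10000 UMIs in cluster 1 to 49.1 in cluster 11 in DBZ and from 17.0 to 55.6 in DMSO. Rps12 (chr10:23785183-23787275), which in flies takes part in cell competition, ran from 9.49 to 24.8 in DBZ and from 7.82 to 26.7 in DMSO, between the same clusters. Rpl12 (chr2:32961559-32965345), at the base of the stalk, ran from 7.58 in cluster 6 to 20.3 in cluster 11 in DBZ and from 6.71 in cluster 2 to 21.1 in cluster 11 in DMSO. Rps19 ran from 21.7 in cluster 1 to 57.4 in cluster 7 in DBZ and from 22.3 in cluster 1 to 69.9 in cluster 8 in DMSO. Rpsa ran from 9.90 in cluster 1 to 28.8 in cluster 11 in DBZ and from 9.91 in cluster 2 to 26.5 in cluster 11 in DMSO. Cluster 11 held the deepest cells, with medians of 22948.5 UMIs in DBZ and 22944.5 in DMSO. Over all 81 genes the median range was 0.97 in DBZ and 0.96 in DMSO on the log2 scale.

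Rpl7 and Rps27l differed among clusters in other ways. Rpl7, a large subunit protein, stood at 13.9 per 10000 UMIs in the DBZ cells of cluster 1 and 26.3 in those of cluster 2, and at 18.8 and 30.9 in DMSO. Rpl7 was the highest member of cluster 2 against the other cells of the library, at 0.14 in DBZ and -0.11 in DMSO, where all 81 members were lower. Rps27l was highest in cluster 11, at 13.7 in DBZ and 13.1 in DMSO, and lowest in cluster 2 in DBZ, at 7.46, and in cluster 5 (Pnliprp2 and Egr4) in DMSO, at 6.03.

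Over single cells the members varied together, with some of the same exceptions. The correlation of a member's log level with the share taken by the other members had a median of 0.76 over the 81 genes in DBZ (1241 cells) and 0.70 in DMSO (968 cells). It was 0.87 for Rps19 in DBZ and 0.83 in DMSO. It was 0.27 and 0.11 for Rps27l and 0.20 and 0.21 for Rpl36al. Genes with fewer UMIs give lower correlations from counting alone, and points of a library share its cells and depths.

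Within clusters the libraries differed by less than over all cells. In 7 of the 8 clusters with enough cells of both, the mean share was lower in DBZ. The difference was -5.49 points in cluster 9 (Sprr1a and Reg3g, 30 DBZ and 98 DMSO cells), -4.06 in cluster 11, -3.63 in the mitosis-like cluster 4 and -2.87 in cluster 3 (Pmp22 and Ndufa4l2). It was -1.45 in cluster 0 (led by Cyp2c55 and Notum, among others), also -1.45 in cluster 2, -0.98 in the enteroendocrine-like cluster 1, and 0.44 in the DNA replication-like cluster 7. Malat1 was higher in DBZ in 7 of the 8 clusters, with cluster 9 the exception, at 305 per 10000 UMIs in DBZ and 316 in DMSO. Its part within clusters was not tested.

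Counting members gave much the same order of clusters. A change of -0.25 or lower was reached by 59 of the 81 in cluster 9, against a background of 21.3%, with a median of -0.34. It was reached by 38 in cluster 11, against 23.2%, and by 36 in cluster 4, against 18.6%, with medians of -0.24 and -0.23. In cluster 3 it was reached by 26, against 28.2%, in cluster 2 by 17, against 29.4%, and in cluster 1 by 12, against 30.5%, so these shares were near or below the background. In cluster 0 it was reached by 3, against 26.4%. In cluster 7, where members lay on both sides of 0, it was reached by 0, against 30.5%, with a median of -0.01. The median change of the members in clusters 3, 2, 1 and 0 was -0.14, -0.12, -0.10 and -0.11. The median over all genes analysed in these clusters was 0.07, 0.04, -0.03 and -0.0019, so the members lay slightly lower there as well.

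**Figure D5:**
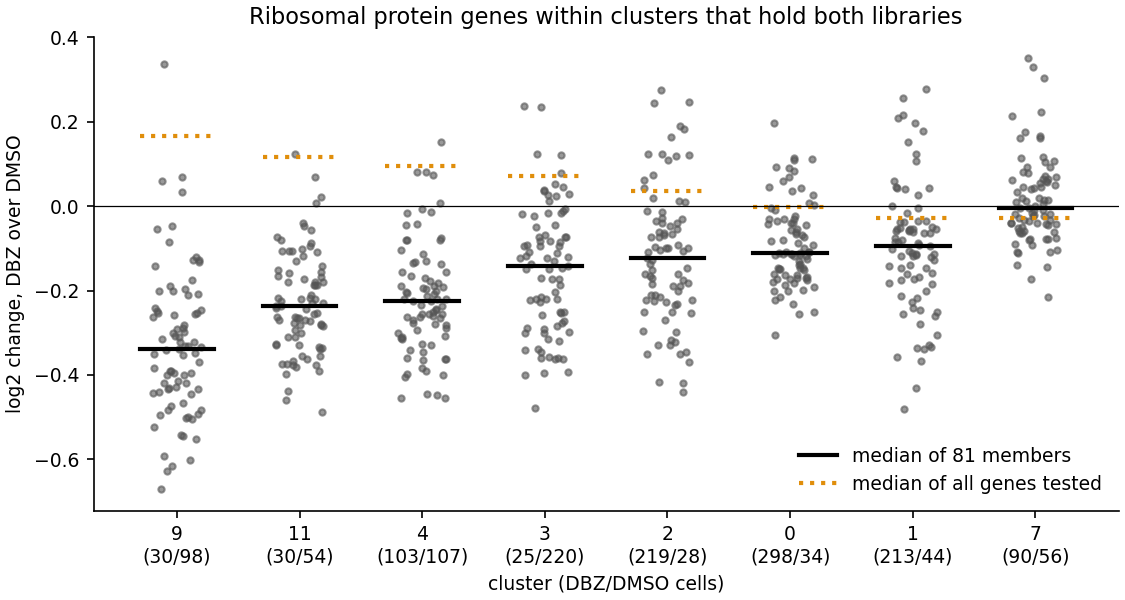
Log2 change of the 81 genes, DBZ over DMSO (vertical axis), within each cluster that held at least 20 cells of both libraries (horizontal axis, with cell numbers). Each point is 1 gene, the black bar is the median of the 81, from -0.34 in cluster 9 to -0.01 in cluster 7, and the dotted orange bar is the median of all genes analysed in that cluster.

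Over the cells of the 8 shared clusters the difference in share was -5.53 points with each library's own makeup. With every cluster given equal weight it was -2.44 points. Weighted by the makeup of DMSO it was -2.94 points, and by that of DBZ -1.64. The clusters were made from these same cells, and clustering after each gene was centred within its library gave -4.84 at equal weight, so the part that falls within clusters depends on how cells are matched.

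Some members kept their place among the 81 across the clusters, which come from the same pair of libraries. Rps21 was higher in DBZ in 8 of 8 clusters, by 0.02 to 0.35, the only member of which this holds, against 4.46% of the 6948 genes detected in 10% or more of the cells in every one of them. Rpl41 was higher in 7 of 8 and Rps27l in 6 of 8. By contrast 33 of the 81 were lower in 8 of 8, against a background of 2.42%. Among them were Rps26 (-0.48 to -0.11), Rpl23a (-0.59 to -0.06) and Rpl17 (-0.60 to -0.06). These backgrounds were not matched for level. Of the 81, 73 stood above 10 per 10000 UMIs in both libraries, and genes with fewer UMIs change sign more easily from counting alone. In all, 17 members lay above the median member in 8 of 8 clusters, including Rpl38, Rpl39, Rplp1, Rplp2, Rps28 and Rps29. Another 17 lay below it in 8 of 8, including Rps26, Rpl4, Rpl7, Rpl17, Rps4x and Rps7, and the remaining members lay on either side, as Rps27l did (-0.12 in cluster 1 and 0.34 in cluster 9).

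The levels of 7777 other genes were set against the ribosomal share over cells, and the 10 highest and 10 lowest with a gene name other than a Gm or Rik number are given. Levels were taken per 10000 UMIs of genes outside the 81, on the log scale, and the first value of each pair is over 1241 DBZ cells and the second over 968 DMSO cells. The highest was Fau, which encodes a ribosomal protein of the small subunit fused to a ubiquitin-like protein, at 0.81 and 0.82. Next came Eef1a1, which brings transfer RNAs to the ribosome, at 0.77 and 0.71, and Gnb2l1, the small subunit scaffold also called Rack1, at 0.70 and 0.67. They were followed by Eef1b2 and Eef1g, of the complex that recharges Eef1a1, Naca, of the nascent chain complex, Pabpc1, the poly(A)-binding protein, Wdr89, Tpt1 and Npm1, a nucleolar chaperone. The median gene had 0.02 and 0.01.

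At the other end stood genes with levels that were higher in cells with a low share. Cpe, a carboxypeptidase that processes hormones in enteroendocrine cells, had -0.42 and -0.41, at 1.62 per 10000 UMIs in DBZ and 0.447 in DMSO. Pla2g2f, a secreted phospholipase, had -0.38 and -0.35. Hmgn3, a chromatin protein, had -0.34 and -0.36, and Nsf, of vesicle fusion, -0.29 and -0.34. Aplp1, Malat1, Pycr1, Rhoc, Wif1 and Itm2c complete the 10 lowest. The enteroendocrine list, with 18 of 19 genes in the table, summed to 21.3 per 10000 UMIs in DBZ and 5.63 in DMSO and correlated with the share at -0.37 and -0.42. The Paneth list, with 13 of 15, summed to 273 and 63.7 and correlated at -0.19 and -0.14. Without the Paneth-like and enteroendocrine-like clusters the difference in share between the libraries was -6.18 points.

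The lists of other translation factors also had medians below 0. Their counts stand against 36.8% of all 8797 genes with a change below 0 and 15.4% at -0.25 or lower. Of the ribosomal proteins that the naming rule missed, 3 of 3 reached -0.25 or lower. Of these, Fau stood at 20.3 per 10000 UMIs in DBZ and 29.1 in DMSO (-0.52) and Gnb2l1 at 9.24 and 12.2 (-0.40). Of the elongation factors 9 of 9 were lower and 5 of 9 reached -0.25, with a median of -0.28. Eef1a1 stood at 46.8 and 57.04 (-0.28), Eef1b2 at 5.71 and 8.23 (-0.52), Eef1g had -0.41, and Eif5a and Eef2k, the kinase of Eef2, had -0.17 and -0.08. Of 30 initiation factors 21 were lower and 14 reached -0.25, with a median of -0.22. Eif3h, at 3.19 and 5.07 (-0.66), and Eif3e, at 3.01 and 4.77 (-0.66), both subunits of the scaffold complex eIF3, were lowest. Eif4g2, a scaffold used in cap-independent initiation, at 5.53 and 4.02 (0.46), and Eif2s3x (0.30) were highest, and Eif1 stood at 16.9 and 18.8 (-0.15).

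Factors around the ribosome were mixed, and their counts stand against the same background, with a median of 0.11 over all genes. Of 7 nascent chain factors 3 were lower, with a median of 0.12. Naca had -0.56 and its partner Btf3 -0.36, while Srp14 of the signal recognition particle stood at 3.99 in DBZ and 2.18 in DMSO (0.86) and Srp72 had 0.30. Of 21 biogenesis factors 14 were lower and 6 reached -0.25, with a median of -0.13. Dkc1, the pseudouridine synthase of ribosomal RNA, had -0.52 and Npm1, at 8.31 and 10.5, -0.34, while Polr1a, the largest subunit of RNA polymerase I, had 0.58 and Nop10 0.38. Of 12 genes of mTOR and LARP1 control 4 were lower, with a median of 0.10, which is near that background. Rheb, which activates mTOR, at 2.32 and 3.36, had -0.52 and Eif4ebp1, an inhibitor of cap binding, -0.51, while Tsc2, which restrains Rheb, had 0.88, Rptor 0.72 and Larp1 0.10.

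The mitochondrial ribosome, built from a separate set of proteins, had changes around 0. Of 35 of its genes 17 were lower, 18 were higher and 1, Mrpl16 (-0.30), reached -0.25 or lower, with a median of 0.02. Mrpl33 stood at 3.41 per 10000 UMIs in DBZ and 2.95 in DMSO (0.21), and Mrpl20 (0.39) and Mrps26 (0.35) were highest. Of 14 p53 targets, which are switched on when surplus ribosomal proteins bind Mdm2, 9 were lower, with a median of -0.24. Gdf15 had -2.38 and Btg2, at 4.91 and 10.1, -1.04, while Trp53inp1 had 1.06 and Zmat3 0.48, beside 0.07 for Rps27l.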

How the data were processed

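The members and gene lists were chosen with earlier results of these data known. Cell Ranger 2.1.1, Seurat and build mm10 are named in the submitters' processing notes, while annotation, strand setting and filters are not stated there. Natural log values were deposited by the authors, and each is, from the values, the natural log of 1 + 10000 times a gene's share of a cell's UMIs. All 7553435 values above 0 were whole multiples of 1 step per cell (tolerance 0.01), which recovered the UMIs. The values remain on a log scale, and no count model was fitted. Columns beginning CTRL and GSI were read as DMSO and DBZ from the meaning of the names.

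Changes used a pseudocount of 0.05 per 10000, which understates the change of low genes, and each cell weighed equally. Pooled UMI ratios have exact conditional 95% intervals. In simulated data for all 13373 genes, based on DMSO cells, these intervals held the true value for 95.4% of 8595 unchanged genes. For sets of 50 genes changed 0.5-, 0.75-, 1.25- and 1.5-fold it was 92, 94, 96 and 96%. All simulated cells of a library were drawn from 1 profile. The simulation thus checks counting error only and says nothing about variation between cells. Genes at 0 in every cell numbered 282 in DBZ and 723 in DMSO.

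Clustering used scanpy 1.11.5 with igraph 0.11.9, with 2000 variable genes outside the 81, 30 components, 15 neighbours, resolution 1 and seed 0, without integration or doublet removal. The naming rule for clusters, the share of 15% and the depth bands were set after the data were seen. Leading genes were taken among genes in at least 25% of a cluster's cells. Gene positions came from GENCODE vM21 (GRCm38, which is mm10) and starts from RefSeq (GRCm38.p6).

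Genes named are the 5 members with the most UMIs, the 5 lowest and 5 highest changes, the 5 widest cluster ranges, the stalk, Rpsa, members with paralogs, the 10 genes outside the 81 that follow the share most and least, and the ends and most expressed of each list. Some items that this rule names are not reported here. Rpl4, Rpl6, Rpl7, Rpl22l1, Rps7, Rps28, Larp1 and Btf3 were chosen after their values were seen, as were the motifs searched and the coding length relation.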

Additional observations from a re-analysis of the deposited data

How the results depend on the processing

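No paired analysis was possible because each group is 1 library. The count of members at a log2 change of -0.25 or lower stayed between 67 and 77 under every alternative run. The median member change (-0.44) was -0.42 with a pseudocount of 1, -0.55 per UMIs of other genes, -0.41 without Paneth and Defa genes in the total, -0.42 without Malat1, -0.42 over pooled UMIs, -0.47 from means of log values, -0.40 without the Paneth-like and enteroendocrine-like clusters and -0.37 without the 3 clusters over 90% from 1 library (158 DBZ and 317 DMSO cells). The last and the Malat1 alternative were added after seeing the data. The difference in share (-6.62 points) was -6.87 without mitochondrial genes, -6.25 without Paneth and Defa genes, -6.46 without Malat1, -6.45 pooled, -7.33 for medians, -6.77 without cells over 2 times the median UMIs, -6.18 without the Paneth-like and enteroendocrine-like clusters, -6.48 in cells of 8000 to 16000 UMIs and -5.55 without clusters from 1 library. The range over DBZ clusters, over DMSO clusters and the equal-weight difference were 11.7, 12.4 and -2.29 when clustered with the members, 8.66, 13.1 and -2.29 at resolution 0.5, 13.3, 14.6 and -2.27 at resolution 2, 11.4, 13.1 and -2.64 with seed 1, and 10.95, 12.4 and -4.84 when centred within library. The log2 difference in subunit balance (-0.0045) was 0.032 from medians over members.

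List medians at a pseudocount of 1 were -0.19 for elongation, -0.14 for initiation, -0.36 for ribosomal proteins outside the rule, 0.037 for nascent chain factors, 0.028 for mTOR and LARP1, -0.047 for biogenesis and -0.076 for p53 targets (-0.26 at 0.01). Per UMIs of other genes they were -0.39, -0.34, -0.50, 0.0086, 0.0031, -0.23 and -0.36, and -0.10 for the mitochondrial ribosome. Of 350 recomputed changes of 25 named members, 195 moved by less than the gene's own counting interval reaches to each side. A further 152 moved by more and 3 turned direction. The 3 were Rps27l, at -0.044 per UMIs of other genes and -0.053 without clusters from 1 library, and Rps21, at 0.017 without those clusters. The causes were not tested. The limits are 1 library per group, values that are shares, clusters that differ in makeup, and reads that near-identical copies may share. Depth limits low genes such as Rptor or Tsc2, at 265 and 278 UMIs in DBZ.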

Other observations

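Rows named as pseudogenes of the ribosomal protein genes went much the same way as their parents. Of 13 such rows 10 were seen in at least 10% of cells, 9 of the 10 were lower in DBZ and 6 reached a log2 change of -0.25 or lower, against 15.4% of all genes, with a median of -0.35. Rps26-ps1 stood at 0.985 per 10000 UMIs in DBZ and 1.62 in DMSO (-0.69, beside -0.73 for Rps26), and Rpl23a-ps3 at 2.94 and 4.54 (-0.62, beside -0.66 for Rpl23a). Rpl10-ps3, at 0.580 and 0.570, had 0.03, beside -0.19 for Rpl10. Reads of a parent and of its copies may not be told apart, so these values are not independent of the parents.

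Of the 13 genes left out by name, 9 were seen in at least 10% of cells, and their median change was 0.04, with 3 lower and 0 at -0.25 or lower. Rpl7l1, a relative of Rpl7, had -0.23, and the kinase Rps6ka3 had 0.40. Genes of the cell cycle were lower in DBZ: the 16 mitosis genes had a median change of -0.50 and the 15 DNA replication genes -0.49, and their summed levels correlated with the ribosomal share over cells at 0.20 and 0.29 in DBZ and at 0.07 and 0.19 in DMSO.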
